A study of Homo sapiens with 6 samples.

Results

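Integrins and the proteins that gather at their cytoplasmic tails were examined in SK-N-BE cells after knockdown of the long noncoding RNA CyCoNP. The set held 40 genes of the 60676 listed in the count table, taken by gene symbol. It comprised 18 integrin subunits (12 α and 6 β) and 22 cytoplasmic proteins of focal adhesions, and each symbol matched 1 identifier. SK-N-BE is a human neuroblastoma line that differentiates towards neurons under retinoic acid. All 6 libraries came from cells of this line given 10 μM retinoic acid in low-serum medium and collected at 1.5 days of differentiation. In 3 of them the siRNA was a scrambled control (si-SCR), and in the other 3 a pool directed at CyCoNP (si-CyCoNP). The results therefore describe 1 cell line, 1 siRNA pool and 1 time. The labels do not say whether the replicates were separate cultures, so p-values measure only the spread between libraries, which may be technical.

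Integrins are heterodimers of an α and a β chain that span the plasma membrane and hold cells to the extracellular matrix. The α chain largely sets the ligand, which can be collagen, laminin or a protein with an RGD tripeptide such as fibronectin. Talin and kindlin bind the β tail and switch the receptor on. The complex of ILK, PINCH and parvin, together with vinculin, zyxin and the tensins, links it to actin, while focal adhesion kinase and Src family kinases signal from the same site through scaffolds such as paxillin. In neurons and neural crest derivatives these receptors take part in migration and neurite outgrowth.

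The total count per library was 4294778, 3762009 and 4782950 in si-SCR against 4799407, 4249504 and 4146034 in si-CyCoNP, of which the 40 genes took 0.325% to 0.345% and 0.294% to 0.304%. Correlations between replicates of a group ranged from 0.984 to 0.987. The chi-square per degree of freedom between the counts of 2 replicates was 5.69 and 4.34 for the pairs with si-SCR replicate 3. It was 2.56 to 2.80 for the other pairs within a group. LINC02381, the gene of CyCoNP, had 274, 208 and 315 counts in si-SCR against 20, 30 and 12 in si-CyCoNP (log2 fold change -3.78, SE 0.190, edgeR adjusted p = 6.84e-14), so that the libraries matched their labels. All 11 adrenergic neuroblastoma markers were detected. Their summed level was 2596 to 3074 FPKM (fragments scaled by gene length and library total) in si-SCR against 2084 to 2261 FPKM in si-CyCoNP. This sum includes MYCN, which rose from 428 FPKM in si-SCR to 806 FPKM in si-CyCoNP, while 8 of the 11 markers fell. Of 16 markers of mesenchymal, glial, endothelial and blood cells, 13 were detected, and PRRX1, SOX10 and PECAM1 were at 0 in every library. The highest was the mesenchymal marker TWIST1, at 48.0 FPKM in si-SCR against 49.0 FPKM in si-CyCoNP. The summed level of the 16 was 67.4 to 84.0 FPKM in si-SCR against 81.7 to 96.4 FPKM in si-CyCoNP. In bulk RNA, fewer cells of a type and less RNA per cell cannot be told apart, and the part of these markers in the results was not tested.

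Of the 40 genes, 27 reached a mean of 1 FPKM in at least 1 group and were tested with the quasi-likelihood test of edgeR, with p-values adjusted over all 13966 genes that passed this filter. Genes are called higher or lower at an adjusted p under 0.05. In si-CyCoNP 3 members rose (ITGA9, TNS2 and PTK2), 9 fell (ITGA1, ITGA6, ITGB5, ITGB8, TLN2, FERMT2, ILK, LIMS1 and PARVA) and 15 did not pass the test. The background over all tested genes was 14.2% higher and 14.2% lower, against 11.1% and 33.3% of the tested members. The median log2 fold change of the tested members was -0.22, beside 0.01 over all tested genes, with a range from -1.15 for ITGA6 to 1.54 for TNS2. With the added demand of a log2 fold change above 1 or below -1, 1 member was higher (TNS2, background 2.28%) and 1 lower (ITGA6, background 2.98%), and neither passed it on log2(FPKM + 1). TNS2 passed the expression filter only through si-CyCoNP, where it was high, so its place in these counts carries no support of its own. FPKM of the 2 groups did not overlap for 13 of the 27 members, where the background was 40.3%.

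The count of lower members depended on 1 library. Without si-SCR replicate 3, 15 members fell and 2 rose, the added ones being ITGA11, ITGAV, PARVB, TNS1, VCL and ZYX. Over all 14107 genes tested in that fit, 2223 were lower and 2174 higher. ILK, ITGA1, ITGA6, LIMS1 and PTK2 passed the test under all 14 alternative settings. FERMT2, ITGB5 and ITGB8 lost it only when log2 FPKM was tested with limma, and TNS2 only with a pseudocount of 1 FPKM. ITGA9, PARVA and TLN2 also lost it under other settings, given with their values.

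**Figure D1:**
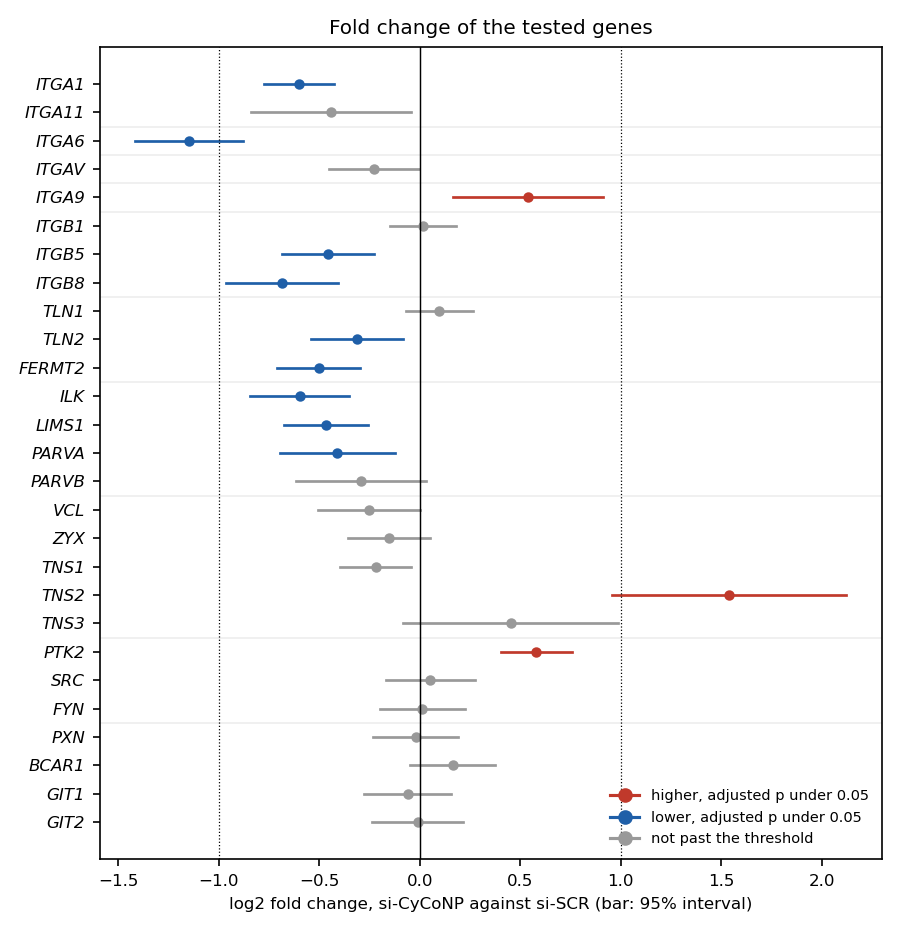
Log2 fold changes of the 27 tested members, si-CyCoNP against si-SCR, from the edgeR fit to 3 libraries in each group, with 95% confidence intervals as bars. Red points are higher and blue points lower at an adjusted p under 0.05, grey points did not pass, and dotted lines mark -1 and 1; the 9 blue points reach from -0.31 for TLN2 to -1.15 for ITGA6 and the 3 red ones from 0.54 for ITGA9 to 1.54 for TNS2.

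The promoter windows of ITGA6 and ILK were the only member windows with the letters CACGTG, the E-box that MYC family proteins can bind. RefSeq promoter windows (GRCh38.p14, 250 bases before to 50 bases after a start) were found for 30 of the 40 members, as 58 windows. The motif reads the same on both strands and stood in 2 of these 58 windows (3.45%) and in 7.26% of all 35116 windows. MYCN, the MYC family gene of neuroblastoma, had 428 ± 19.0 FPKM in si-SCR against 806 ± 57.7 in si-CyCoNP (log2 fold change 0.84, edgeR adjusted p = 2.65e-09). Any link between MYCN and ITGA6 or ILK was not tested, and the stretches around the motif are shown only as description. The capitals mark the E-box, and both stretches are on the plus strand, ITGA6 at chr2:172427195-172427280 and ILK at chr11:6603524-6603589.
ITGA6: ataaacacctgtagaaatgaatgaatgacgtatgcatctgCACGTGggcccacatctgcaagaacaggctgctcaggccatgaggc
ILK: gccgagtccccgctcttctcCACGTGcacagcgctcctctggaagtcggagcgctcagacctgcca
Counted from the RefSeq start of each window, which differs from the GENCODE gene start given with each gene, the E-box ran from 101 to 96 bases upstream in ITGA6 and from 230 to 225 bases upstream in ILK. GGAATG, the core of TEAD sites, was found on either strand in 7 of the 58 windows, which belong to ITGA10, ITGA5, ITGB1, PXN, TNS1 and VCL, and in 14.0% of all windows. The motif AGATAA, which GATA factors bind, was found on either strand in 4 windows, those of BCAR1, FYN, ITGAV and LIMS1, and in 10.3% of all. A match describes the letters of these windows and is not a measured site.

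Among the integrin subunits, 8 of 18 were tested, of which 1 rose (12.5%) and 4 fell (50%), with a median log2 fold change of -0.45. Over all tested genes 14.2% were higher and 14.2% lower. The collagen-binding α chains were led by ITGA1, the α1 chain, which was the most abundant α subunit on the FPKM scale in every library. ITGA1 measured 33, 38.8 and 31.9 FPKM in si-SCR against 24.0, 25.3 and 22.3 FPKM in si-CyCoNP. Even the highest si-CyCoNP value was below the lowest si-SCR value, at 34.5 ± 3.71 against 23.9 ± 1.54 FPKM (SD, n = 3), a fall of 0.60 on the log2 scale (SE 0.0849, edgeR adjusted p = 3.79e-06). ITGA1 lies on chromosome 5 from 52787916 to 52959209 (plus strand, GRCh38) and shares 5.77% of its exon bases with genes of the same strand, PELO and RPL17P21, so reads there could have been left out of its count. ITGA11, the collagen receptor chain of mesenchymal cells, had 1.64 ± 0.251 FPKM in si-SCR against 1.26 ± 0.203 in si-CyCoNP and did not pass the test (log2 fold change -0.44, edgeR adjusted p = 0.0926).

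ITGA6, the laminin-binding α6 chain (chromosome 2 from 172427354 to 172506459, plus strand), showed the largest fall of the tested members. Its level was 7.25, 8.48 and 10.3 FPKM in si-SCR against 4.19, 4.35 and 3.74 FPKM in si-CyCoNP. The highest si-CyCoNP library stayed below the lowest si-SCR library, and the mean went from 8.66 ± 1.51 to 4.09 ± 0.317 FPKM (SD, n = 3). The fitted level in si-CyCoNP was 45.1% of that in si-SCR, a log2 fold change of -1.15 (SE 0.131, edgeR adjusted p = 1.22e-07). ITGA3, another laminin-binding chain, was below the filter with 52 counts summed over si-SCR and 20 over si-CyCoNP, and in a fit with no expression filter its log2 fold change was -1.47 (edgeR adjusted p = 0.00805).

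Of the 3 RGD-binding chains 1, ITGAV, was tested, and it did not pass. ITGAV, the α chain shared by the vitronectin receptors, measured 8.92, 9.18 and 7.71 FPKM in si-SCR against 8.24, 7.04 and 7.75 FPKM in si-CyCoNP. The groups overlapped, and the log2 fold change was -0.23 (95% interval -0.45 to 0.00, edgeR adjusted p = 0.129). ITGA5, the α chain of the classical fibronectin receptor, was near the limit of detection at 0.378, 0.468 and 0.198 FPKM in si-SCR against 0.480, 0.669 and 0.523 FPKM in si-CyCoNP. That was 32 counts against 54 counts in all, and without a filter its log2 fold change was 0.64 (edgeR adjusted p = 0.365).

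ITGA9, whose product binds tenascin, osteopontin and VCAM1, was the only tested integrin subunit that rose. It measured 2.59, 2.06 and 1.62 FPKM in si-SCR against 2.7, 3.73 and 3.12 FPKM in si-CyCoNP. The groups did not overlap, though si-SCR replicate 1 and si-CyCoNP replicate 1 were close, and the log2 fold change was 0.54 (SE 0.181, edgeR adjusted p = 0.0258). This call was lost with DESeq2 (adjusted p = 0.0726), on either log2 FPKM scale, and in edgeR without si-SCR replicate 2, si-SCR replicate 3 or si-CyCoNP replicate 2 (adjusted p = 0.0502, 0.131 and 0.154).

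ITGB1, the β1 chain that pairs with all of the α chains named above, came after ZYX and FERMT2 by mean FPKM in si-SCR, though within their spread, and led the members in si-CyCoNP. It did not pass the test. Its level was 45.3, 48.5 and 50.7 FPKM in si-SCR against 48.2, 50.1 and 54.5 FPKM in si-CyCoNP. The groups overlapped, with a log2 fold change of 0.01 whose 95% interval ran from -0.15 to 0.18 (edgeR adjusted p = 0.919) and whose sign turned without si-SCR replicate 1 or without si-CyCoNP replicate 3. The other β chains that were tested, both of which pair with αV, fell. ITGB5 went from 23.5 ± 5.0 to 18.0 ± 1.99 FPKM (log2 fold change -0.46, edgeR adjusted p = 0.00247), although the highest si-CyCoNP library reached the lowest si-SCR library. ITGB8, a receptor chain known for activating latent TGF-β, measured 2.75, 2.79 and 2.7 FPKM in si-SCR against 2.10, 1.68 and 1.56 FPKM in si-CyCoNP. Its groups were apart and the log2 fold change was -0.69 (SE 0.135, edgeR adjusted p = 0.000286).

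The 10 integrin subunits below the filter stayed under 0.7 FPKM in every library. Besides ITGA3 and ITGA5 these were ITGA2, ITGA10, ITGA7, ITGA8, ITGA4, ITGB3, ITGB4 and ITGB6. ITGA4 had 17 counts in si-SCR against 24 in si-CyCoNP, ITGA8 had 21 and 8, and ITGB3 had 13 and 10, while ITGB6 had 1 count in 1 si-SCR library and none elsewhere. The kindlin FERMT1, the PINCH protein LIMS2 and the kinase PTK2B, which had 48 and 51 counts, were the other members below the filter.

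**Figure D2:**
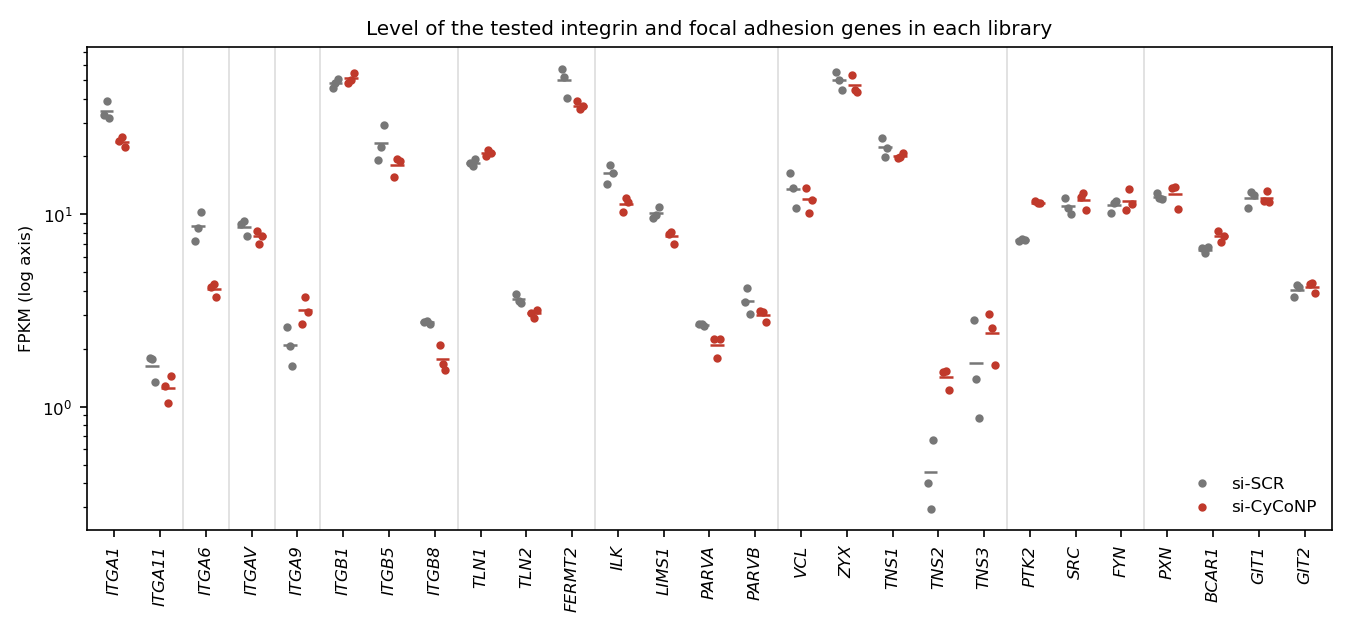
FPKM of the 27 tested members in each library on a log axis, with 3 si-SCR and 3 si-CyCoNP points per gene, a line at each group mean and vertical lines between roles. ITGB1, at 48.1 FPKM in si-SCR against 50.9 in si-CyCoNP, stands near the top beside ZYX and FERMT2, and TNS2 is the lowest in si-SCR at 0.457 FPKM.

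As ITGA1 and ITGA6 fell and ITGB1 did not pass the test, α and β chains were also summed per library on the FPKM scale, a description chosen after the values had been seen and given with no test, since ITGA1 and ITGA6 make up most of the α sum. The summed α chains were 56.9 ± 4.60 FPKM in si-SCR against 41.2 ± 1.78 in si-CyCoNP (SD, n = 3), and the summed β chains 74.6 ± 7.54 against 70.9 ± 4.48 FPKM. The ratio of summed α chains to ITGB1 was 1.21, 1.28 and 1.06 in si-SCR against 0.863, 0.854 and 0.721 in si-CyCoNP. ITGA6 made up 15.3% ± 3.21 of the α sum in si-SCR against 9.92% ± 0.352 in si-CyCoNP, ITGAV 15.1% ± 1.07 and 18.7% ± 1.90, and ITGA9 3.68% ± 0.929 and 7.71% ± 1.14 (SD, n = 3). ITGA1 stayed the largest part, at 60.6% ± 1.62 and 57.9% ± 1.28. Shares within a sum are linked, so a fall of 1 chain raises the share of the others, and RNA of a chain is not a measure of receptor at the cell surface.

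**Figure D3:**
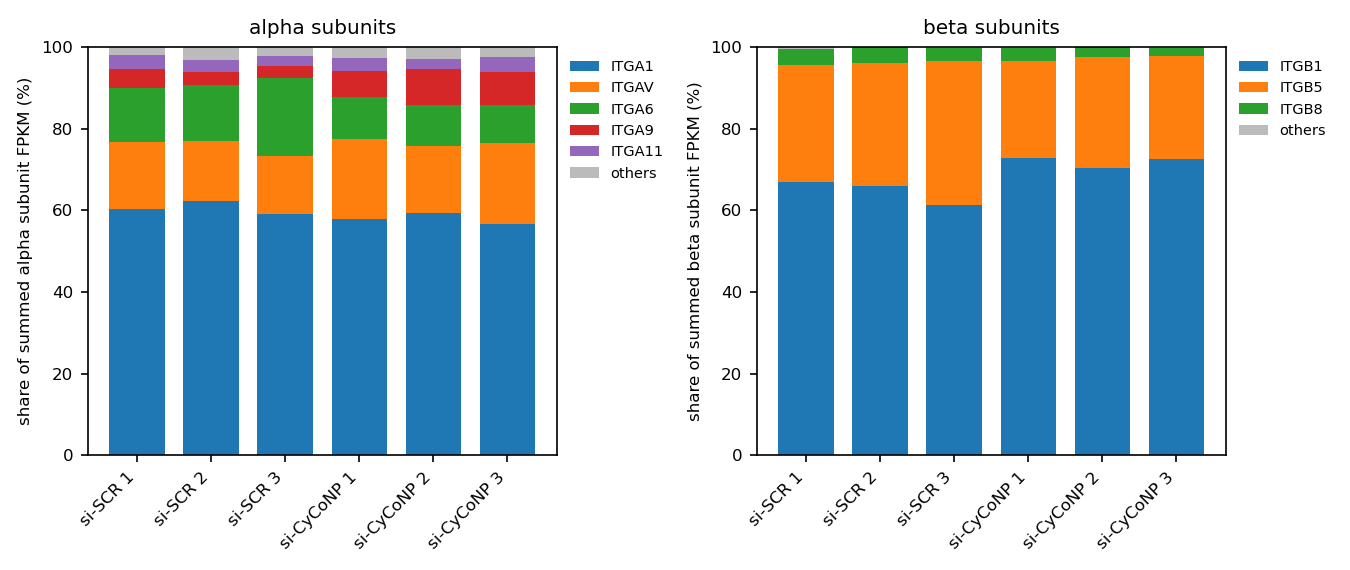
Composition of the summed integrin α FPKM and of the summed β FPKM in each of the 6 libraries, as stacked percentages, with the less abundant chains joined as others. ITGA1 is the largest α block in every library, the ITGA6 block averages 15.3% in si-SCR against 9.92% in si-CyCoNP, and the ITGB1 block averages 64.7% and 71.9%.

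Of the 22 cytoplasmic proteins 19 were tested, of which 2 rose (10.5%) and 5 fell (26.3%), with a median log2 fold change of -0.06. Over all tested genes 14.2% were higher and 14.2% lower. Talins and kindlins, the activators of the β tail, had 3 tested genes of which 2 fell (66.7%). TLN1, the widely expressed talin, measured 18.5, 17.8 and 19.5 FPKM in si-SCR against 20.2, 21.6 and 20.8 FPKM in si-CyCoNP. These values did not overlap on the FPKM scale, which is set by library totals, but with TMM scaling the log2 fold change was 0.10 (95% interval -0.07 to 0.26) and did not pass (edgeR adjusted p = 0.408). TLN2, the talin enriched in brain and muscle, went from 3.62 ± 0.215 to 3.06 ± 0.157 FPKM (log2 fold change -0.31, edgeR adjusted p = 0.0366). The call for TLN2 was lost with DESeq2, library totals alone, no filter, either log2 FPKM scale, and without replicate 1 or 2 of either group, where the edgeR adjusted p ranged from 0.0713 to 0.161. FERMT2, the kindlin of most tissues outside epithelium and blood, measured 57.0, 51.8 and 40.4 FPKM in si-SCR against 38.8, 35.2 and 36.4 FPKM in si-CyCoNP. Here si-SCR replicate 3 lay close to si-CyCoNP, the groups did not overlap, and the log2 fold change was -0.50 (SE 0.101, edgeR adjusted p = 0.000336).

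The ILK, PINCH and parvin genes, whose products form a ternary complex that ties β tails to actin, had 4 tested genes. Of these, 3 fell (75%, beside 14.2% lower over all tested genes). ILK, the pseudokinase at its centre, measured 14.4, 18.2 and 16.4 FPKM in si-SCR against 10.2, 12.1 and 11.6 FPKM in si-CyCoNP. The groups were apart, with a log2 fold change of -0.60 (SE 0.120, edgeR adjusted p = 0.000369). ILK lies on chromosome 11 from 6603708 to 6610874 (plus strand), and 78.5% of its exon bases overlap genes on the opposite strand, so its value rests on the strand being used in counting. LIMS1, the PINCH1 adapter, went from 10.1 ± 0.653 to 7.68 ± 0.609 FPKM (log2 fold change -0.47, edgeR adjusted p = 0.00093). PARVA fell from 2.67 ± 0.0318 to 2.10 ± 0.264 FPKM (log2 fold change -0.41, edgeR adjusted p = 0.0270), while its paralogue PARVB, at 3.55 ± 0.556 and 3.01 ± 0.211 FPKM, did not pass (log2 fold change -0.29, edgeR adjusted p = 0.177). The call for PARVA was lost with DESeq2 (adjusted p = 0.0732), library totals alone, either log2 FPKM scale, and in edgeR without si-SCR replicate 1 or 2 or si-CyCoNP replicate 2 (adjusted p = 0.0662, 0.0666 and 0.151).

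Of the 5 genes of the actin link, 1 rose (20%, beside 14.2% higher over all tested genes). TNS2, the tensin enriched in liver, kidney and muscle and the member with the largest fold change, lies on chromosome 12 from 53046969 to 53064379 (plus strand). It measured 0.403, 0.296 and 0.672 FPKM in si-SCR against 1.52, 1.54 and 1.22 FPKM in si-CyCoNP, from 14, 9 and 26 counts against 59, 53 and 41 counts. The groups were far apart at a low level, with a log2 fold change of 1.54 (SE 0.283, edgeR adjusted p = 0.000131), and TNS2 passed the expression filter only through si-CyCoNP. VCL, which encodes vinculin and joins talin to actin under tension, measured 16.3, 13.8 and 10.8 FPKM in si-SCR against 13.7, 10.2 and 11.9 FPKM in si-CyCoNP. Its groups overlapped and it did not pass (log2 fold change -0.25, 95% interval -0.51 to 0.00, edgeR adjusted p = 0.134), but it passed without si-SCR replicate 3 (adjusted p = 8.41e-05) and without si-CyCoNP replicate 1 (adjusted p = 0.0417). ZYX (zyxin), at 49.7 ± 5.34 against 46.9 ± 5.45 FPKM, and TNS1 did not pass either, with log2 fold changes of -0.15 and -0.22 (edgeR adjusted p = 0.285 and 0.0580), though TNS1 passed without si-SCR replicate 2 or 3 (adjusted p = 0.0194 and 0.0116) and ZYX without si-SCR replicate 3 (adjusted p = 0.0251). TNS3 ranged from 0.871 to 2.81 FPKM within si-SCR, and its log2 fold change of 0.45 did not pass (edgeR adjusted p = 0.214) but passed with no expression filter (adjusted p = 0.0367) and reached 1.06 without si-SCR replicate 1 (edgeR adjusted p = 0.000129).

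PTK2, which encodes focal adhesion kinase, was the 1 tested kinase of 3 that passed the test (33.3% higher, beside 14.2% over all tested genes). It measured 7.30, 7.45 and 7.32 FPKM in si-SCR against 11.7, 11.4 and 11.4 FPKM in si-CyCoNP. The spread within each group was small beside the gap, at 7.36 ± 0.0793 against 11.5 ± 0.176 FPKM (SD, n = 3). The fitted level in si-CyCoNP was 149% of that in si-SCR, a log2 fold change of 0.58 (SE 0.0858, edgeR adjusted p = 7.19e-06). The Src family kinases SRC and FYN had log2 fold changes of 0.05 (95% interval -0.17 to 0.27) and 0.01 (95% interval -0.20 to 0.22) and did not pass (edgeR adjusted p = 0.768 and 0.950), and both signs turned when certain libraries were left out.

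Of the 4 scaffold genes 0 passed with edgeR, DESeq2 or limma, and 0 had an unadjusted edgeR p under 0.05. PXN (paxillin), a substrate of focal adhesion kinase, had 12.4 ± 0.512 FPKM in si-SCR against 12.8 ± 1.83 FPKM in si-CyCoNP. GIT1 and GIT2, which bind paxillin and carry exchange factors for Rac, had 12.1 ± 1.15 and 12.2 ± 0.862 FPKM and 4.06 ± 0.313 and 4.21 ± 0.282 FPKM. The log2 fold changes of these 3 genes lay between -0.06 and -0.01, with signs that turned under library totals alone, and that of BCAR1 (p130Cas) was 0.16 (95% interval -0.05 to 0.38, edgeR adjusted p = 0.268).

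Ratios of paralogues within a library, which do not depend on scaling between libraries, could be formed for 5 of the 8 pairs considered, the other 3 having a gene below the filter. The ratio of TLN1 to TLN2 in FPKM was 5.15 ± 0.439 in si-SCR against 6.84 ± 0.545 in si-CyCoNP (SD, n = 3) with no overlap, a log2 difference of 0.41 (exact permutation test, two-sided, p = 0.1, adjusted p = 0.5 over the 5 pairs), where 0.1 is the smallest p that 3 libraries against 3 can give. The other pairs overlapped. The log2 differences were -0.13 for PARVA to PARVB (p = 0.6), 0.04 for SRC to FYN (p = 0.8), -0.05 for GIT1 to GIT2 (p = 0.4) and -0.77 for TNS1 to TNS3 (p = 0.2), each by the exact permutation test, with adjusted p from 0.5 to 0.8. The TNS1 to TNS3 ratio varied widely, at 16.1 ± 8.47 in si-SCR against 8.96 ± 3.26 in si-CyCoNP, and its log2 difference lay between -1.14 (without si-SCR replicate 1) and -0.38 (without si-SCR replicate 3). The sign turned for PARVA to PARVB without si-CyCoNP replicate 2 (0.0055), and for SRC to FYN without si-SCR replicate 3 or si-CyCoNP replicate 1 (-0.062 and -0.060).

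Genes of the same pathway outside the set were read from lists of ligands, further adhesion proteins and markers. Of 25 integrin ligands 12 were tested, of which 5 rose (41.7%) and 4 fell (33.3%), beside 14.2% in each direction over all tested genes, with a median log2 fold change of 0.14. Of those called, FN1, COL4A2 and COL1A1 passed the expression filter only through si-CyCoNP, where they were high, and LAMA5 and VTN only through si-SCR, so the counts carry no support of their own. FN1, which encodes fibronectin, had 0.697 ± 0.108 FPKM in si-SCR against 5.41 ± 0.949 in si-CyCoNP (log2 fold change 2.88, edgeR adjusted p = 1.28e-13), and the basement membrane collagen COL4A2 rose by 1.18 (edgeR adjusted p = 2.17e-06). Laminin chains went both ways. LAMA5 and LAMB2 fell, with log2 fold changes of -1.29 and -0.89 (edgeR adjusted p = 1.44e-06 and 5.86e-05), LAMA4 and LAMC1 rose, with log2 fold changes of 0.69 and 0.23 (edgeR adjusted p = 0.00215 and 0.0396), and LAMB1 did not pass (log2 fold change 0.06, edgeR adjusted p = 0.615).

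Of 35 further adhesion complex genes 28 were tested, of which 4 rose (14.3%, near the 14.2% over all tested genes) and 7 fell (25%, beside 14.2%), with a median log2 fold change of -0.07. LPP, counted among those that rose, passed the expression filter only through si-CyCoNP, where it was high, and its groups overlapped. CSK, the kinase that holds Src family kinases inactive, went from 10.3 ± 2.08 to 24.5 ± 1.44 FPKM (log2 fold change 1.18, edgeR adjusted p = 8e-09), and the actin regulator VASP rose by 0.60 (edgeR adjusted p = 4.62e-06). ACTN1 (α-actinin 1), which crosslinks actin at adhesions, went from 39.5 ± 3.45 to 22.8 ± 0.389 FPKM (log2 fold change -0.86, edgeR adjusted p = 9.12e-09). The tetraspanin CD9, a membrane partner of integrins, went from 4.23 ± 0.465 to 1.23 ± 0.111 FPKM (log2 fold change -1.84, edgeR adjusted p = 3.06e-07).

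Of the 11 adrenergic markers 1 rose (MYCN, 9.09%) and 8 fell (72.7%), beside 14.2% in each direction over all tested genes. Their median log2 fold change was -0.61. Among those that fell was GATA2, a regulator of the sympathetic lineage, at -1.06 (edgeR adjusted p = 9.24e-11). Of the 16 markers of other cell types 7 were tested, of which 2 rose (28.6%) and 2 fell (28.6%), beside the same 14.2%. COL3A1 rose with a log2 fold change of 2.83 but passed the filter only through si-CyCoNP. SNAI2 and DCN fell (-1.27 and -0.82). Of 11 leukocyte and platelet adhesion genes, ITGAD, ITGAM, ITGAX and TNS4 were at 0 in every library and 1 (ITGAE) was tested and did not pass, and their summed level was 2.0 to 2.91 FPKM in si-SCR against 2.18 to 3.09 FPKM in si-CyCoNP.

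**Figure D4:**
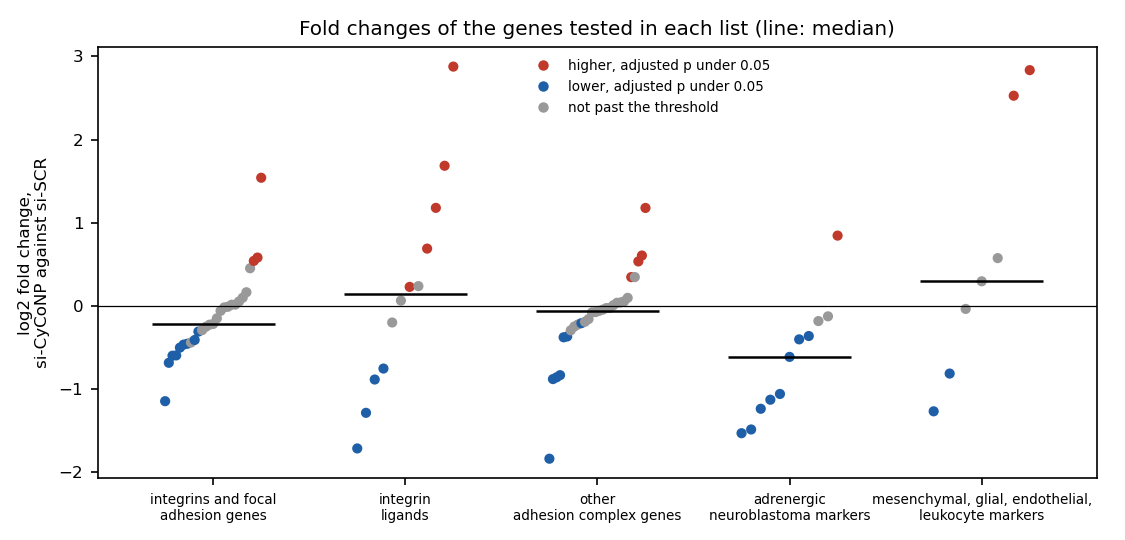
Log2 fold changes, si-CyCoNP against si-SCR, of the tested genes in the 40-gene set and in 4 other lists, 1 point per gene, with a line at each median. The medians are -0.22 for integrins and focal adhesion genes, 0.14 for ligands, -0.07 for other adhesion complex genes, -0.61 for adrenergic markers and 0.29 for markers of other cell types.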

How the data were processed

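Total RNA libraries were made by the authors with a stranded kit after ribosomal RNA depletion and sequenced as paired ends. Per the labels and the methods of the study, reads were processed with Trimmomatic 0.39, cutadapt 3.2 and Bowtie2 2.4.2 and aligned with STAR 2.7.7a to GRCh38. The authors deposited raw counts per Ensembl gene and FPKM, which divides a count by gene length and library total with no correction for composition. Counting used strand. A count was seen for 29.5% of 770 genes enclosed by exons of an antisense gene and for 5.71% of 1139 genes enclosed by exons of a sense neighbour (two-sided Fisher's exact test, p = 1.86e-45).

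Counts were TMM-normalised and tested with edgeR 4.0.16 in R 4.3.3, over 13966 genes with a mean of at least 1 FPKM in either group, with Benjamini-Hochberg adjustment. The study used DESeq2, run here (1.42.0) as an alternative, beside limma 3.58.1 on log2(FPKM + 1) and log2(FPKM + 0.1) made from the deposited FPKM. Errors beside means are SD over 3 libraries. Counts are not corrected for PCR duplicates.

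The members, lists and tests were chosen with earlier results of these data known. Values in every library are given for members that passed the test with a log2 fold change of at least 0.5 in size, and for ITGB1, ITGAV, ITGA5, TLN1, VCL, PTK2 and ILK. Members below the filter are given by level. Of other genes, fold changes are given for LINC02381 and for up to 2 higher and 2 lower genes of smallest p in each list. LAMA4, LAMC1 and LAMB1 were added by name as laminin chains, and TWIST1 by level as the highest of its list. Positions are from GENCODE v44 (GRCh38). The values of 2 list genes are not reported here, and they enter only the list summaries.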

Additional observations from a re-analysis of the deposited data

How the results depend on the processing

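The 14 alternatives left the direction of all 12 called members as it was. The number of members that fell ranged from 7 to 15 when 1 library was left out, the 15 being without si-SCR replicate 3. Over all tested genes 1617 to 2223 were lower in those fits. The number of members that fell was 4 on either log2 FPKM scale. Of all 13966 tested genes, 1118 were lower on log2(FPKM + 1) and 1113 on log2(FPKM + 0.1). The number of members that rose was 1 on log2(FPKM + 1), where 1765 of all tested genes were higher. Past the fold threshold, leaving out 1 library gave 1 to 2 higher members, log2(FPKM + 1) gave 0 higher and 0 lower, and the default filter of edgeR or no filter gave 2 lower. The median of the tested members was -0.15 with library totals alone, -0.14 on both log2 FPKM scales, and -0.26 to -0.12 when 1 library was left out. The median over all tested genes moved too, to 0.07 with library totals alone. It was 0.06 on log2(FPKM + 1) and 0.07 on log2(FPKM + 0.1), beside 0.01 in the main fit. Among the lists, ligands that rose numbered 3 with DESeq2 and 8 with no filter, other adhesion genes that fell numbered 4 on both log2 FPKM scales, and markers of other cell types that rose numbered 1 to 4 without 1 library and 1 on both log2 FPKM scales, where 1 fell. The cause of these shifts was not tested. Counts limit the untested members, since 5 of the 13 had at most 3 counts in every library.

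The replicate number was no pairing by the labels, and deviations of same-numbered libraries correlated at 0.0907, 0.0727 and 0.108, though every library correlated best with its own number. With the replicate block 4 members rose and 12 fell, the added ones being TNS3 (adjusted p = 0.0103), and ITGA11, TNS1 and VCL (adjusted p = 0.0495, 0.0115 and 0.0166), and 4 markers of other cell types rose. Over all 13966 genes tested with the block, 2403 were higher and 2368 lower.

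Signs turned only for members that did not pass. When 1 library was left out, ITGB1 ranged from -0.046 to 0.051 (negative without si-SCR replicate 1 or without si-CyCoNP replicate 3), SRC from -0.032 to 0.14, FYN from -0.087 to 0.085, PXN from -0.080 to 0.085 and GIT2 from -0.060 to 0.034. With library totals alone PXN was 0.049, GIT1 0.0061 and GIT2 0.056. On log2(FPKM + 1) they were 0.035, 0.0062 and 0.043, and on log2(FPKM + 0.1) 0.036, 0.0068 and 0.053.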
